A study of Mus musculus with 12 samples.

Results

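The 10 genes described here belong to bone morphogenetic protein (BMP) and transforming growth factor beta (TGF-beta) signalling, and were read in mouse yolk sac with and without ectopic Norrin. They were the ligands Bmp2 and Bmp4, the homeobox targets Msx1 and Msx2, the targets Id1, Id2 and Id3, the inhibitory Smads Smad6 and Smad7, and the matrix gene Tgfbi. A probe set was kept where the array annotation mapped it to 1 of these genes and to no other gene. This gave 18 probe sets of 10 genes, out of 34945 probe sets of 18193 genes tested, and all 18 are shown.

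The yolk sac surrounds the early embryo, nourishes it and forms its first blood and vessels. Norrin, a secreted protein, activates the receptor Frizzled4 and through it beta-catenin, and the study asked which transcripts this signalling regulates in the yolk sac. The 4 groups, of 3 arrays each, were Norrin and wild type at E8.5 (embryonic day 8.5), and Norrin and wild type at E10.5. In the Norrin groups (Z/Norrin mice) Norrin came from a conditional over-expression allele, and its Cre driver and time of activation are not given in the sources used here. Both genotypes were on a mixed C57Bl6/129 background, and each array read a pool of the yolk sacs of 3 to 5 embryos of both sexes, so the replicates were separate pools. Values are log2 array signals, on which a difference of 1 is a 2-fold change.

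The 12 arrays had median log2 levels of 6.59 to 6.73 at E8.5 and 6.97 to 7.01 at E10.5, and arrays of a group correlated at 0.973 to 0.991. The deposited values show that each stage was normalized in a run of its own. Pairs of arrays within a stage had 26 to 93 probe sets with the very same value, and none of the 36 pairs that cross stages had any. Stage and normalization run therefore cannot be told apart, and no level is tested between stages. Spiked-in control transcripts were brighter in the replicate 3 pools at E8.5, at 11.82 in Norrin and 11.85 in wild type, than in the other E8.5 arrays, at 10.29 to 10.69. Results at E8.5 that depend on those arrays are given with and without both. The probe set of Ndp, the gene that encodes Norrin, averaged 4.54 ± 0.09 in Norrin and 4.59 ± 0.10 in wild type at E8.5, and 4.49 ± 0.05 in Norrin and 4.49 ± 0.06 in wild type at E10.5 (SD, n = 3). Whether its probes lie in the transgene is not given in the sources used here, so it does not check the labels.

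BMP and TGF-beta ligands bind pairs of serine/threonine kinase receptors on the cell surface. The receptors phosphorylate Smad proteins, which enter the nucleus with Smad4 and switch on target genes. The Id genes, which encode helix-loop-helix proteins that block other transcription factors, and the Msx genes, which encode homeobox repressors, are classical BMP targets. Smad6 and Smad7 are themselves induced by the pathway and inhibit it. Tgfbi encodes a secreted extracellular matrix protein named for its induction by TGF-beta. In the mouse, Bmp4 is needed for the extraembryonic mesoderm that forms the blood islands of the yolk sac.

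The promoters of 3 members are shown because the results turn on them: Msx2 and Tgfbi gave the differences that passed the test, and Id3 stands for the Id targets, of which none passed. Each runs 5′ to 3′ on the strand of its gene, from 250 bases before to 50 bases after the start, and comes from RefSeq on mouse build GRCm38.p6. The windows are chr13:53472731-53473030 on the minus strand for Msx2, chr13:56609336-56609635 on the plus strand for Tgfbi and chr4:136143572-136143871 on the plus strand for Id3. Capitals mark matches to the motifs named after the sequences.
Msx2: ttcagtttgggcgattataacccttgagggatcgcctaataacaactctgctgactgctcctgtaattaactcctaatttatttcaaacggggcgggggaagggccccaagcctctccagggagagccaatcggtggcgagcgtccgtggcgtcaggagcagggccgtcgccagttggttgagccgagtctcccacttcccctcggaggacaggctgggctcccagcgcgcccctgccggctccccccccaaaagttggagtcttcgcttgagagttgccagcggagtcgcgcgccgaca
Tgfbi: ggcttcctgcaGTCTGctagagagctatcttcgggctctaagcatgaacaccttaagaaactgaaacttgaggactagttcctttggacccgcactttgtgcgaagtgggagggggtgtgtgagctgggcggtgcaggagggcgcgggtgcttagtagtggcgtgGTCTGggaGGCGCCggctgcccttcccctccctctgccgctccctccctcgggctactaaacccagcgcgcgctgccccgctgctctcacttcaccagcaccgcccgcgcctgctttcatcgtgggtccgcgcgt
Id3: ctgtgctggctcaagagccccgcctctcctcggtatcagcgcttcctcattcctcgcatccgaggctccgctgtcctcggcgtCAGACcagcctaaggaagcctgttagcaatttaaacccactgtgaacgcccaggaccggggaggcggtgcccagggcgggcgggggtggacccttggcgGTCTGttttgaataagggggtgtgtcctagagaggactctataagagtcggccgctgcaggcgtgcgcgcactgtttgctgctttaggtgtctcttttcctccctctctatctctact

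The 4 motifs were searched on both strands in the 7 member promoters used, those of Msx1, Msx2, Id2, Id3, Smad6, Bmp4 and Tgfbi. GGCGCC, a GC-rich element of the kind bound by BMP Smads, lay in 2 of the 7, those of Id2 and Tgfbi, against 11.9% of 32851 promoters. CAGAC, the core Smad box, lay in 2 of the 7, those of Id3 and Tgfbi, against 49.6% of all promoters. CTTTGAA and CTTTGAT, forms of the element bound by the beta-catenin partners TCF and LEF that share their first 6 letters, lay in 0 of the 7, against 5.14% and 3.73% of all promoters. The matches marked in the Tgfbi window do not overlap each other, and the Msx2 window held none of the 4. A match is a description of letters and not of binding.

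On the same build the gene of Msx2 spans chromosome 13 from 53466881 to 53472780, and that of Tgfbi lies on the same chromosome from 56609586 to 56639359. Msx1 spans chromosome 5 from 37820491 to 37824585, Bmp2 chromosome 2 from 133552159 to 133562896 and Bmp4 chromosome 14 from 46383525 to 46390669. The array's probe sets are named for these genes, and the positions are those of the genes and not of the probes.

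Norrin yolk sacs had more Tgfbi transcript than wild type at E10.5, 2.54-fold to 2.94-fold by the 3 probe sets that passed the test. The highest fold came from 1456250_x_at, whose suffix marks probes that can also match other sequences. By 1 of its 2 probe sets, 1449559_at, Msx2 was 2.55-fold higher in Norrin yolk sacs on average over the 2 stages, and this passed too. At neither stage alone did that probe set pass without pairs. The other, dim Msx2 probe set had a mean log2 effect of -0.005. Bmp2 measured 2.07-fold higher on average, but its pools varied widely. It did not pass without pairs, though it did in the paired fit described below. No probe set of the Id genes, Smad6 or Smad7 passed without pairs. Except where pairs are named, these tests are from limma with Benjamini-Hochberg adjustment over 34945 probe sets and a threshold of 0.05.

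At E8.5, 0 of the 18 probe sets passed, against 0.0458% of all probe sets, while 5 had an unadjusted p under 0.05, against 6.49%. At E10.5, 3 of 18 passed, all higher in Norrin and all of Tgfbi, against 2.8% of all probe sets in either direction and 1.34% in that direction. On the mean of the effects at both stages, 2 of 18 passed, Msx2 1449559_at and Tgfbi 1415871_at, against 2.33% of all probe sets. The effects were positive for 13 of 18 probe sets at E8.5 and 15 of 18 at E10.5. Their median was 0.31 at E8.5 and 0.27 at E10.5, where the median over all probe sets was -0.01 and 0.01. These probe sets are not independent of each other, because Tgfbi has 4 and Id2 has 3.

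The Norrin and wild type pools of the same number within a stage deviated from their group means together. Their correlations were 0.41 to 0.75 at E8.5 and 0.23 to 0.50 at E10.5. A second fit therefore compared them as pairs, with the pool number as a block within each stage. The labels do not state such pairs, which were chosen from the data tested. The paired fit left each effect as it was and lowered its error. In that paired fit 3 of 18 probe sets passed at E8.5, against 0.816% of all probe sets, and 7 of 18 at E10.5, against 11%. On the mean of both stages 10 of 18 passed, against 12%. The member counts lie above these background shares, although Tgfbi alone gives 4 of the 7 at E10.5. The members were chosen with earlier results of these data known, so a count above the background share is not a test of them, here or elsewhere. For the 18 member probe sets the paired adjusted p is given below where it changes a call.

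**Figure D1:**
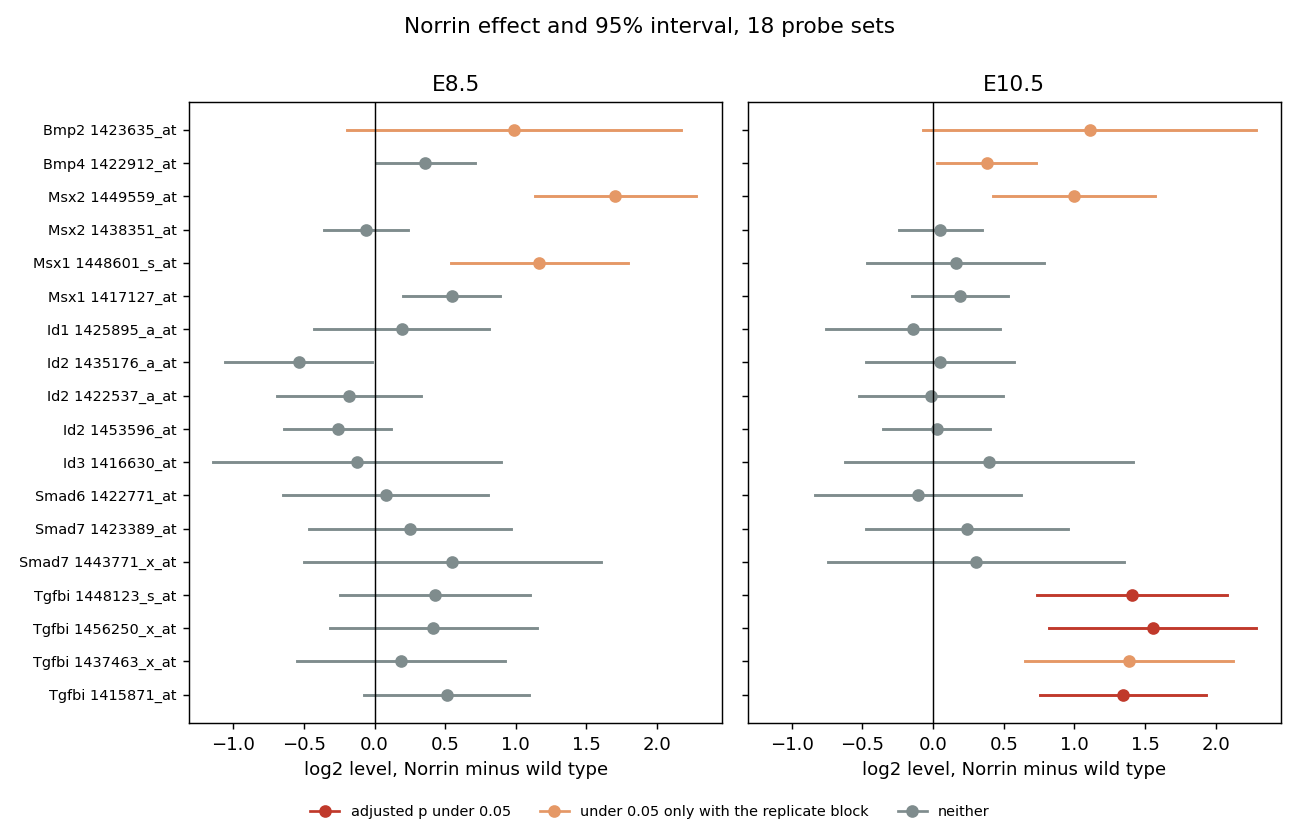
Norrin effect at E8.5 (left) and E10.5 (right) for each of the 18 probe sets, as log2 level in Norrin minus wild type with its 95% interval (limma, 3 pools a group). Red marks an adjusted p under 0.05, orange an adjusted p under 0.05 only in the paired fit, and grey neither; the 4 Tgfbi probe sets lie at 1.34 to 1.55 at E10.5 and the Id probe sets lie around 0.

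Of the ligands, Bmp2 (1423635_at), which signals through the BMP receptors, was read at 8.57, 8.38 and 6.95 in the Norrin pools and at 7.70, 7.67 and 5.56 in the wild type pools of E8.5. The replicate 3 pools were the low ones in both genotypes, and the groups overlapped. At E10.5 the Norrin pools read 6.86, 7.44 and 7.75, and the wild type pools read 6.24, 6.02 and 6.46. Here every Norrin pool lay above every wild type pool. The effect was 0.99 ± 0.54 at E8.5 (SE, 95% interval -0.19 to 2.17, adjusted p = 0.787) and 1.11 ± 0.54 at E10.5 (interval -0.07 to 2.29, adjusted p = 0.429). Leaving out 1 array of E8.5 at a time moved the E8.5 effect between 0.28, without wild type replicate 3, and 1.498, without Norrin replicate 3, and it passed in none of these fits.

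The spread of Bmp2 was shared between same-numbered pools. Norrin exceeded the wild type pool of its number by 0.86, 0.71 and 1.39 at E8.5 and by 0.62, 1.42 and 1.28 at E10.5. In the paired fit Bmp2 passed at both stages, with adjusted p-values of 0.0415 (E8.5) and 0.00455 (E10.5), and on the mean of the stages, 1.05, with 0.00133 against 0.225 without pairs. Leaving out both E8.5 replicate 3 arrays was an alternative chosen after the data were seen. It gave the unpaired E10.5 effect an adjusted p of 0.0162 and the mean effect, then 0.95, one of 0.0205. The E10.5 effect itself stayed at 1.11, and what changed was the spread estimate that the 4 groups share. Bmp2 passed at E10.5 under 2 of 20 alternatives, this one and the paired fit.

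Bmp4 (1422912_at), the ligand of the extraembryonic mesoderm, read 9.83, 9.93 and 9.79 in Norrin and 9.44, 9.47 and 9.56 in wild type at E8.5. The groups did not overlap, although the gap between them was small. At E10.5 it read 9.77, 9.12 and 9.27 in Norrin and 9.20, 8.82 and 9.01 in wild type, and the groups overlapped. The effects were alike at the 2 stages, 0.36 (1.28-fold, interval 0.01 to 0.71, adjusted p = 0.762) at E8.5 and 0.38 (1.3-fold, interval 0.03 to 0.73, adjusted p = 0.324) at E10.5. The paired fit moved the adjusted p past the threshold at E10.5, to 0.0398, and for the mean effect of 0.37, to 0.0112, and not at E8.5, at 0.123.

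**Figure D2:**
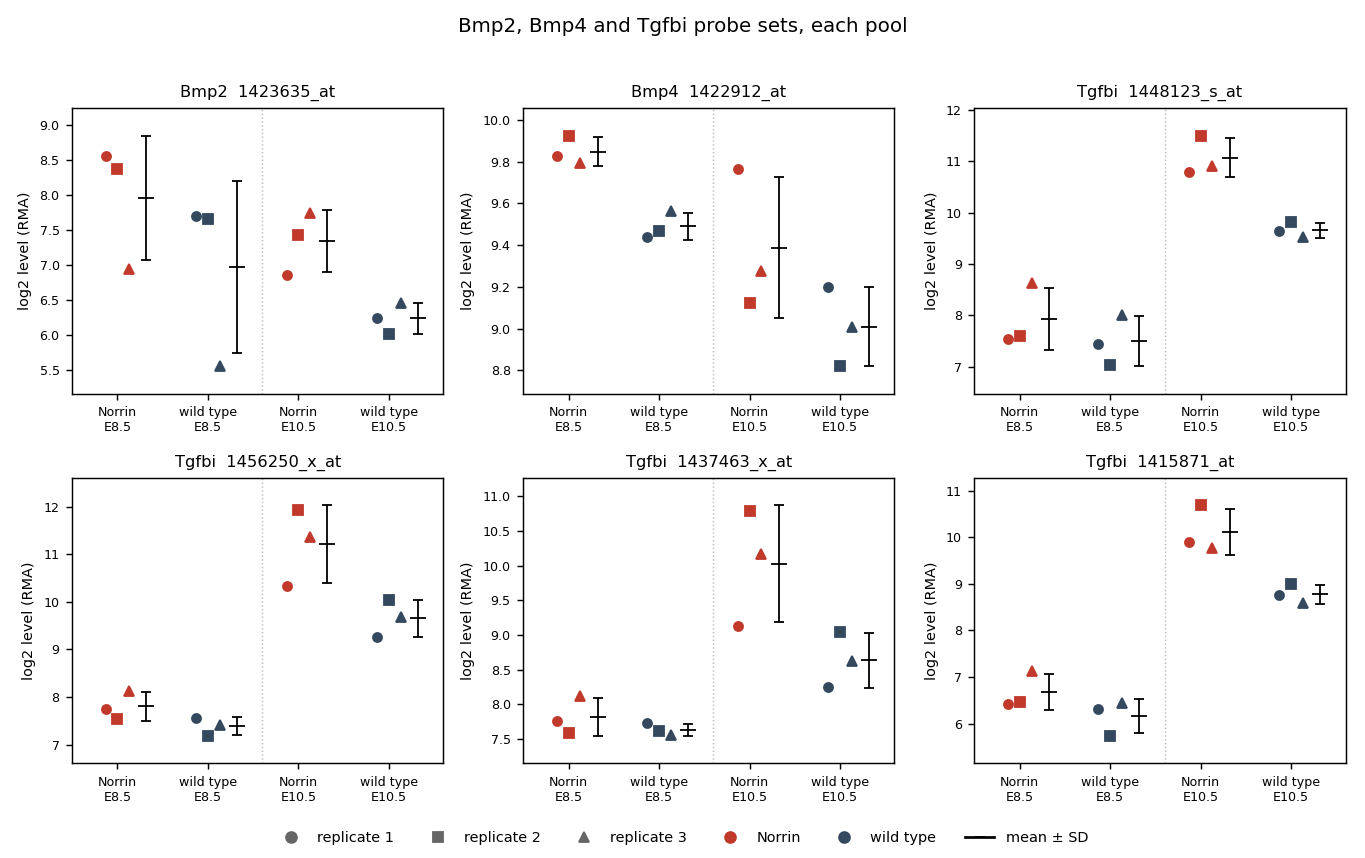
Log2 level (RMA) of the Bmp2, Bmp4 and 4 Tgfbi probe sets in each pool, with symbols for the replicate number, Norrin in red and wild type in blue, and the mean ± SD beside each group of 3; the dotted line parts the stages, which were normalized separately. The Norrin and wild type pools of all 4 Tgfbi probe sets are apart at E10.5 and overlap at E8.5.

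Msx2 had the largest E8.5 effect of the 18 probe sets. Its brighter probe set, 1449559_at, read 8.80, 8.82 and 8.40 in Norrin and 6.96, 7.32 and 6.62 in wild type at E8.5. It read 8.67, 7.78 and 8.24 in Norrin and 7.58, 6.78 and 7.34 in wild type at E10.5. At both stages every Norrin pool lay above every wild type pool, and the differences within same-numbered pools were close to each other, 1.84, 1.498 and 1.78 at E8.5 and 1.09, 1.00 and 0.91 at E10.5.

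The Msx2 effect was 1.71 ± 0.26 at E8.5 (3.26-fold, interval 1.13 to 2.28), with an adjusted p of 0.0632 in the unpaired fit and 0.000437 in the paired fit. At E10.5 it was 1.00 ± 0.26 (2-fold, interval 0.43 to 1.57), with 0.0715 unpaired and 0.000574 paired. Fitted on 1 probe set per gene, the E8.5 effect passed with an adjusted p of 0.039, the 1 of the 10 genes to do so, against 0.077% of all genes. In that fit 1 of the 10 genes passed at E10.5 as well, Tgfbi, against 4.07%. The mean of both effects, 1.35 ± 0.19 (2.55-fold, interval 0.95 to 1.76), passed with an adjusted p of 0.00349, and it passed under each of the 20 alternatives run, with adjusted p from 5.28e-05 to 0.0133.

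The second Msx2 probe set, 1438351_at, did not show this. It was dim, and 10.8% of the tested probe sets had a lower mean. It read 4.77, 5.05 and 4.89 in Norrin and 4.76, 4.90 and 5.25 in wild type at E8.5, and 4.57 ± 0.06 in Norrin and 4.52 ± 0.08 in wild type at E10.5 (SD, n = 3). Its effects were -0.06 (interval -0.36 to 0.23) and 0.05 (interval -0.24 to 0.35), so the rise of Msx2 rests on 1 of its 2 probe sets.

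Msx1, the other homeobox gene of the pair, was apart at E8.5 by both of its probe sets. The brighter, 1448601_s_at, read 10.44, 10.58 and 9.30 in Norrin and 9.06, 9.22 and 8.55 in wild type at E8.5. The replicate 3 pool was the lowest of each genotype. The effect was 1.17 ± 0.29 (2.24-fold, interval 0.54 to 1.79), with an adjusted p of 0.411 unpaired and 0.0142 paired. Without both replicate 3 arrays of E8.5 the unpaired adjusted p was 0.0198. Without the Norrin replicate 3 array alone it was 0.0211, with an effect of 1.57.

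The other Msx1 probe set, 1417127_at, read 8.21, 8.41 and 7.95 in Norrin and 7.46, 7.58 and 7.90 in wild type at E8.5. The lowest Norrin pool and the highest wild type pool nearly met. Its effect of 0.55 (1.46-fold) had an adjusted p of 0.51 unpaired and 0.112 paired. At E10.5 both probe sets overlapped, at 8.63 ± 0.19 in Norrin and 8.47 ± 0.12 in wild type for 1448601_s_at and 7.51 ± 0.15 in Norrin and 7.32 ± 0.14 in wild type for 1417127_at (SD, n = 3). Those effects were 0.16 (interval -0.46 to 0.79) and 0.19 (adjusted p = 0.756). Averaged over the stages, 1448601_s_at gave 0.66 and 1417127_at gave 0.37. With all arrays both passed in the paired fit, with adjusted p of 0.00513 and 0.0472, and not without pairs. Without both replicate 3 arrays of E8.5 the unpaired adjusted p were 0.00555 and 0.0366.

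**Figure D3:**
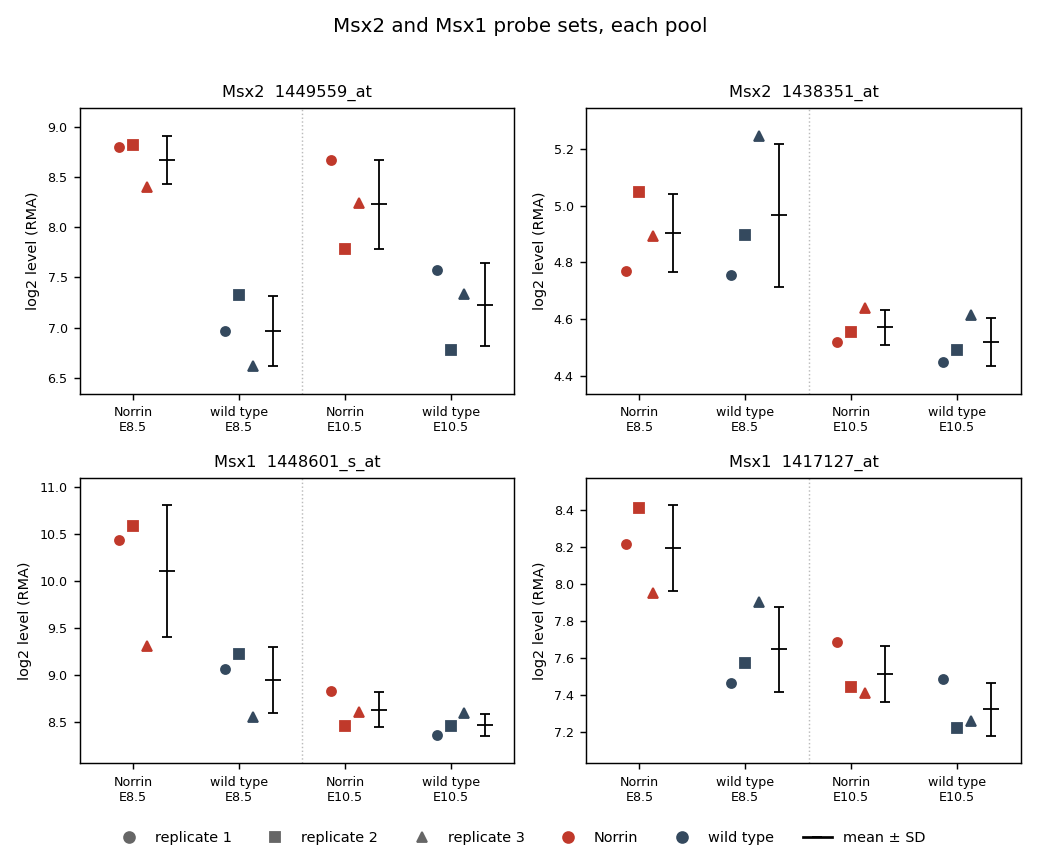
Log2 level (RMA) of the 2 Msx2 and 2 Msx1 probe sets in each pool, with symbols for the replicate number, Norrin in red and wild type in blue, and the mean ± SD beside each group of 3; the dotted line parts the stages. Msx2 1449559_at is apart at both stages, both Msx1 probe sets are apart at E8.5 only, and the dim Msx2 1438351_at overlaps at both.

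The Id genes, which respond to BMP within a short time in many cells, passed at neither stage, in neither fit. Id1 (1425895_a_at) read 10.35, 10.54 and 9.999 in Norrin and 9.86, 10.14 and 10.33 in wild type at E8.5. It read 10.14, 9.18 and 9.79 in Norrin and 10.40, 9.37 and 9.78 in wild type at E10.5. The groups overlapped at both stages, and the effects of 0.19 (interval -0.42 to 0.81) and -0.14 (interval -0.76 to 0.47) had adjusted p of 0.903 and 0.94. The mean effect over the stages was 0.02, with an interval of -0.41 to 0.46.

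Id2 has 3 probe sets, and all 3 overlapped at both stages. The one with the largest E8.5 effect, 1435176_a_at, read 11.27, 10.92 and 10.84 in Norrin and 11.93, 11.77 and 10.94 in wild type. It was the only one of the 18 probe sets below its wild type pool in all 3 pairs of E8.5, against 22.2% of all probe sets. Its effect was -0.54 (interval -1.06 to -0.01, adjusted p = 0.76 unpaired and 0.143 paired). The E8.5 effects of 1422537_a_at and 1453596_at were -0.18 and -0.26, and at E10.5 the 3 effects lay between -0.01 and 0.05.

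Id3 (1416630_at) read 10.13, 10.23 and 8.64 in Norrin and 9.70, 9.91 and 9.75 in wild type at E8.5. One Norrin pool, replicate 3, stood far below the rest. The effect was -0.12 (interval -1.14 to 0.90) with all arrays and 0.37 without both replicate 3 arrays. At E10.5 it read 8.91, 7.61 and 8.33 in Norrin and 8.67, 7.06 and 7.93 in wild type, higher in Norrin in all 3 pairs. That effect was 0.39 (interval -0.62 to 1.41, adjusted p = 0.871 unpaired and 0.392 paired). For Id3 the spread between pools leaves a fall of 2-fold within the E8.5 interval.

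The inhibitory Smads bind receptors or other Smads and damp the signal. Smad6 (1422771_at), which acts mainly on BMP signalling, read 9.54, 9.23 and 8.21 in Norrin and 9.12, 9.32 and 8.30 in wild type at E8.5. At E10.5 it read 8.72, 8.09 and 8.58 in Norrin and 8.78, 8.44 and 8.49 in wild type. The groups overlapped at both stages, with effects of 0.08 (interval -0.65 to 0.81) and -0.10 (interval -0.83 to 0.62).

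Smad7, which acts on both branches of the pathway, read 9.59, 9.76 and 8.71 in Norrin and 9.31, 9.61 and 8.39 in wild type at E8.5 by 1423389_at. At E10.5 the same probe set read 8.86, 9.49 and 9.10 in Norrin and 8.77, 9.20 and 8.77 in wild type. Norrin was higher in all 3 pairs at both stages, while the groups overlapped. The effects were 0.25 and 0.24 with adjusted p of 0.89 and 0.898, and their mean of 0.25 (1.19-fold) passed only in the paired fit, with 0.0412 against 0.694. The second probe set, 1443771_x_at, gave 0.55 and 0.30, and its mean of 0.43 did not pass in the paired fit, with 0.0945. The suffix _x_at marks sets with probes that can also match other sequences.

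**Figure D4:**
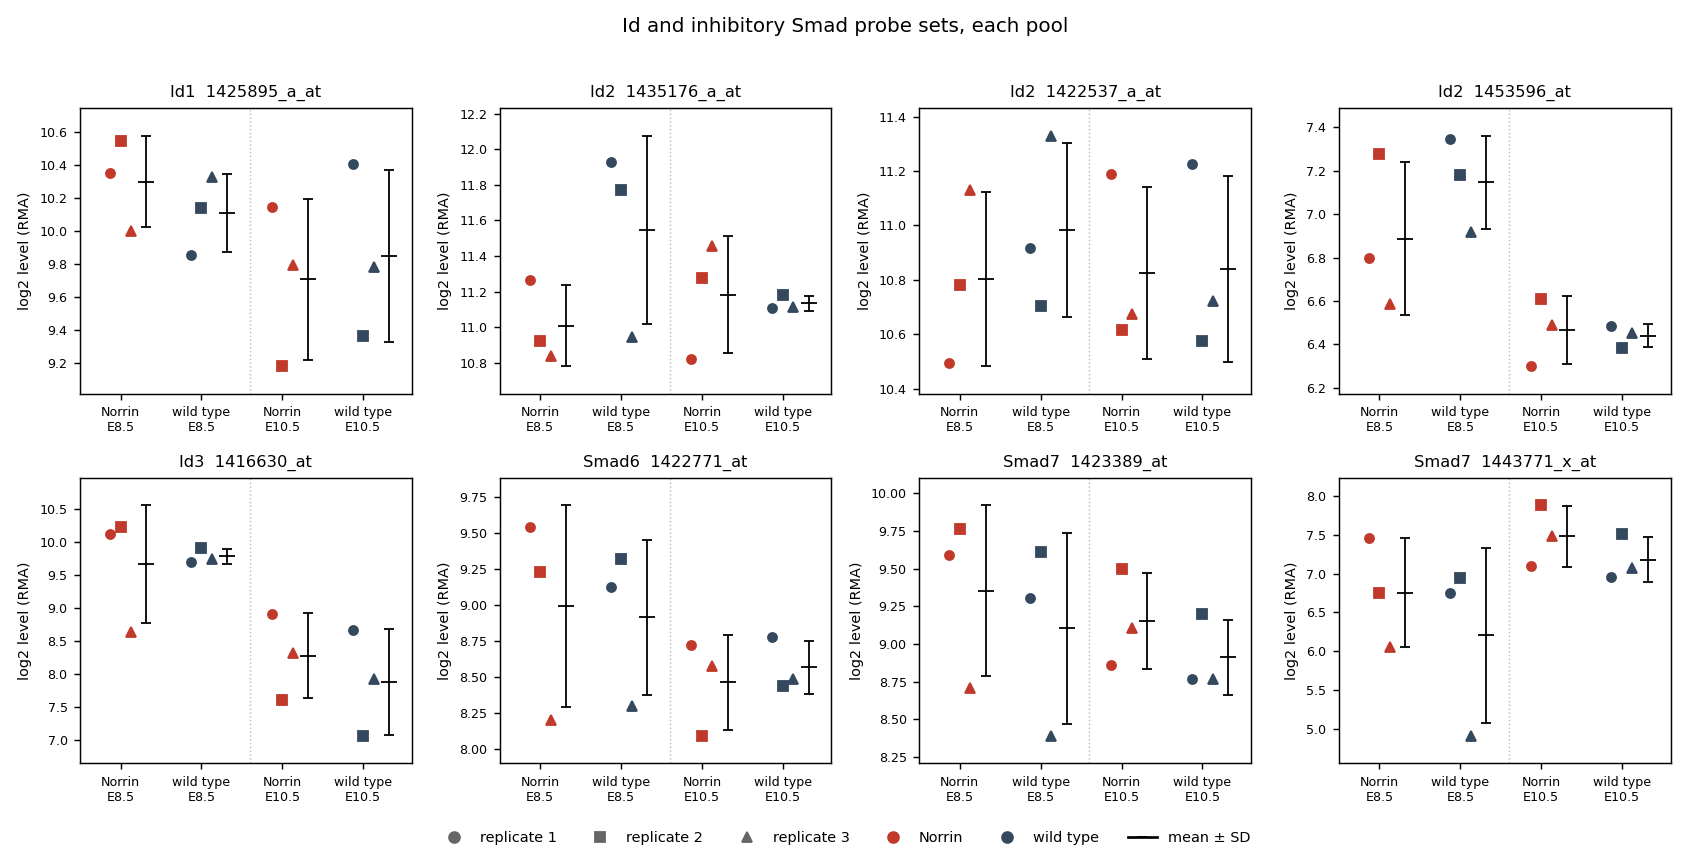
Log2 level (RMA) of the Id1, Id2, Id3, Smad6 and Smad7 probe sets in each pool, with symbols for the replicate number, Norrin in red and wild type in blue, and the mean ± SD beside each group of 3; the dotted line parts the stages. The Norrin and wild type pools overlap in each of the 8 panels at both stages, and in the Smad6 and Smad7 panels the E8.5 replicate 3 pools are the lowest of both genotypes at that stage.

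Tgfbi gave the clearest E10.5 difference of the 10 genes. By 1415871_at it read 9.90, 10.68 and 9.77 in Norrin and 8.75, 8.996 and 8.58 in wild type at E10.5. By 1448123_s_at it read 10.79, 11.50 and 10.90 in Norrin and 9.63, 9.81 and 9.52 in wild type. The lowest Norrin pool lay above the highest wild type pool in both, and the same held for the other 2 probe sets. The remaining probe sets averaged 11.21 ± 0.81 in Norrin and 9.66 ± 0.39 in wild type for 1456250_x_at, and 10.03 ± 0.84 in Norrin and 8.64 ± 0.40 in wild type for 1437463_x_at (SD, n = 3).

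The E10.5 effect was 1.34 ± 0.27 for Tgfbi 1415871_at (2.54-fold, interval 0.76 to 1.93, adjusted p = 0.0201). It was 1.41 ± 0.31 for 1448123_s_at (2.65-fold, adjusted p = 0.0314) and 1.55 ± 0.34 for 1456250_x_at (2.94-fold, adjusted p = 0.0293). The fourth, 1437463_x_at, gave 1.39 ± 0.34 (2.62-fold) and narrowly missed with 0.0508. In the paired fit all 4 passed, with adjusted p of 0.000468 to 0.00163. All 4 are mapped to 1 gene, so they do not count as 4 results. The suffix of 1456250_x_at and 1437463_x_at marks probes that can also match other sequences.

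With 3 pools a group, single arrays decided the unpaired Tgfbi calls. Tgfbi 1415871_at lost its call without wild type replicate 1 (adjusted p = 0.0681), wild type replicate 3 (0.0819) or Norrin replicate 2 (0.0575) of E10.5, with effects of 1.06 to 1.33. Tgfbi 1448123_s_at lost its call without any 1 of the 6 arrays of E10.5 (adjusted p = 0.0588 to 0.11). Tgfbi 1456250_x_at lost it without wild type replicate 1 (0.114), wild type replicate 3 (0.0866), Norrin replicate 2 (0.0826) or Norrin replicate 3 (0.124) of E10.5, and with that stage fitted alone (0.0954). Without wild type replicate 1 or wild type replicate 3, 0 of the 18 probe sets passed at E10.5. Without Norrin replicate 2, 1 did, and it was Msx2 1449559_at (adjusted p = 0.0396) and not a probe set of Tgfbi. Without Norrin replicate 3, 1 did, Tgfbi 1415871_at. The size of the effect held better than the call, and over all left-out arrays it remained between 1.06 and 1.52 for 1415871_at.

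At E8.5 Tgfbi overlapped between the groups by all 4 probe sets. By 1415871_at it read 6.42, 6.47 and 7.12 in Norrin and 6.31, 5.74 and 6.44 in wild type, with an effect of 0.51 (adjusted p = 0.781 unpaired and 0.137 paired). The effects of the other 3 were 0.43, 0.42 and 0.19, with adjusted p of 0.806 to 0.923. Averaged over both stages, 1415871_at gave 0.93 (1.9-fold, adjusted p = 0.0273). That call was lost without wild type replicate 2 of E8.5 (0.0566), Norrin replicate 3 of E8.5 (0.0523), wild type replicate 1 of E10.5 (0.0592) or wild type replicate 3 of E10.5 (0.0685), and without both replicate 3 arrays of E8.5 (0.0511). The mean effects of the other Tgfbi probe sets passed in the paired fit and not without pairs. They were 0.92 for 1448123_s_at (adjusted p = 0.0508 unpaired and 0.000755 paired), 0.99 for 1456250_x_at (0.0539 unpaired and 0.00131 paired) and 0.79 for 1437463_x_at (0.132 unpaired and 0.00495 paired).

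Whether the Norrin effect itself differed between the stages was tested as the E10.5 effect minus the E8.5 effect. Of the 18 probe sets 0 passed, against 0.0744% of all probe sets, and 5 had an unadjusted p under 0.05, against 6.24%. The Msx2 1449559_at difference was -0.70 (interval -1.51 to 0.11, adjusted p = 0.878 unpaired and 0.0509 paired), and the Msx1 1448601_s_at difference was -1.004 (interval -1.89 to -0.12, adjusted p = 0.715 unpaired and 0.0567 paired). The other Msx1 probe set gave -0.36 and the other Msx2 probe set, 1438351_at, gave 0.12. Tgfbi gave 0.83 to 1.20 by its 4 probe sets, and 1 of them, 1448123_s_at (0.98, interval 0.03 to 1.93), passed in the paired fit with 0.0463, against 1.39% of all probe sets. The Bmp2 and Bmp4 differences were 0.12 and 0.02.

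**Figure D5:**
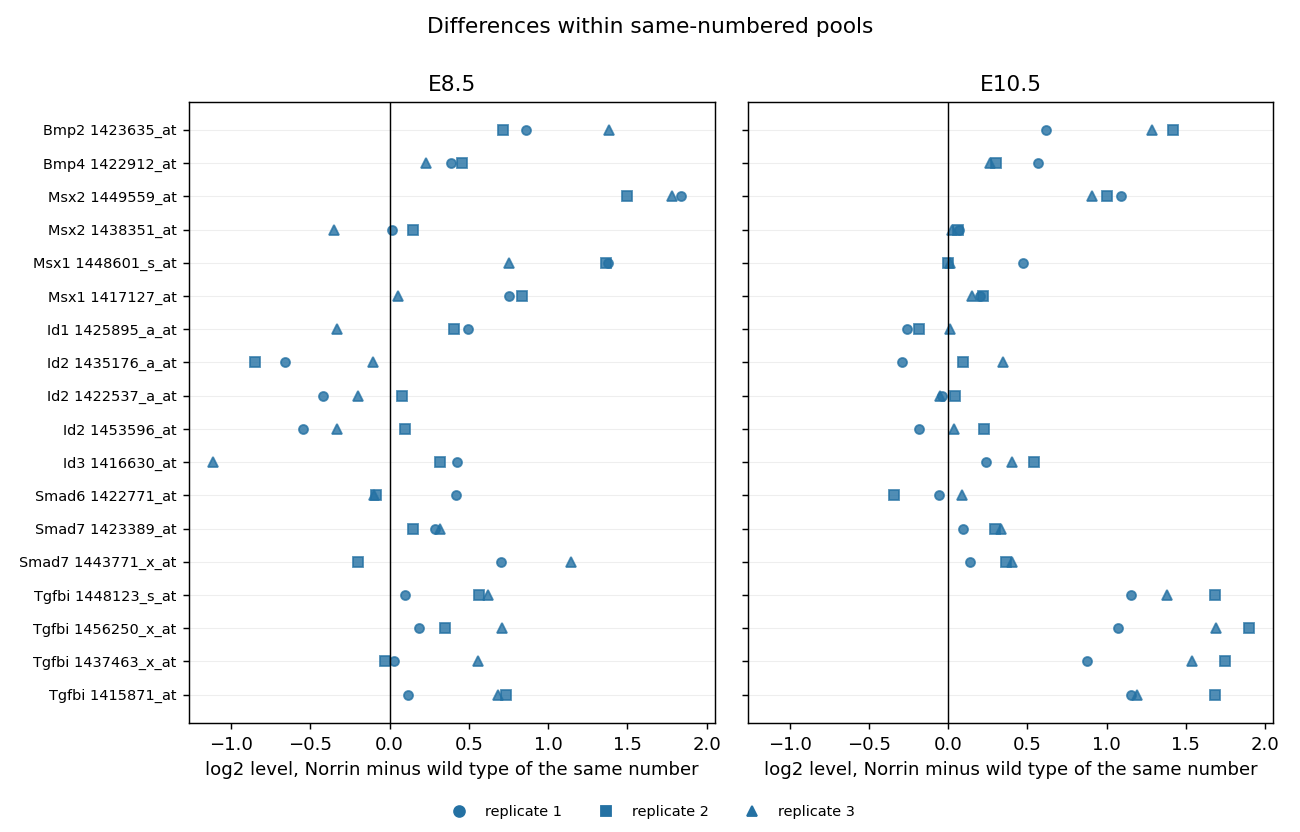
Log2 level in each Norrin pool minus the wild type pool of the same replicate number, at E8.5 (left) and E10.5 (right), for the 18 probe sets, with symbols for the replicate number. At E8.5, 9 probe sets lie right of 0 in all 3 pairs and 1 lies left, and at E10.5, 12 lie right and 0 left.

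Taken pair by pair, 9 of the 18 probe sets were higher in Norrin in all 3 pairs at E8.5, against 20.1% of all probe sets, and 12 at E10.5, against 25.1%. None was lower in all 3 pairs at E10.5, against 22.1%. Without regard to pairs, the pools were apart with Norrin higher for 4 of 18 at E8.5, against 5.29%, namely Bmp4, Msx2 1449559_at and both Msx1 probe sets. At E10.5 they were apart for 6 of 18, against 11.8%, namely Bmp2, Msx2 1449559_at and the 4 of Tgfbi. No probe set was apart with Norrin lower at either stage, where 5.5% and 10.3% of all were. Msx2 1449559_at was thus the 1 probe set of the 18 that was apart at both stages.

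The rest of the pathway was read through 6 lists of other genes. Of the other ligands of the family, 23 of the 29 listed genes had a probe set, 38 probe sets in all. At E10.5, 1 of the 38 passed, against 2.8% of all probe sets. This was Tgfb3, one of the TGF-beta isoforms, at 7.76, 8.07 and 7.82 in Norrin and 7.48, 7.35 and 7.31 in wild type. The groups were apart and the effect was 0.51 (1.42-fold, adjusted p = 0.048). In the paired fit 3 of the 38 passed, against 11% of all probe sets. Bmp7 passed only in the paired fit, lower in Norrin, with E10.5 effects of -0.79 and -0.61 and adjusted p of 0.0448 and 0.0163.

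Of 49 probe sets of 17 receptors and coreceptors, 1 passed at E10.5, against 2.8% of all probe sets. Tgfbr3, the coreceptor betaglycan that presents TGF-beta to its receptors, read 12.14, 12.04 and 12.33 in Norrin and 11.15, 11.21 and 11.35 in wild type by 1433795_at. The groups were well apart, with an effect of 0.94 ± 0.16 (1.91-fold, adjusted p = 0.00827), and the second Tgfbr3 probe set gave 0.74. In the paired fit 9 of the 49 receptor probe sets, of 4 genes, passed at E10.5, all higher in Norrin, against 11% of all probe sets in either direction. Besides Tgfbr3 these were the BMP receptors Bmpr1a (4 probe sets, 0.50 to 0.76), Bmpr2 (0.64 and 0.48) and Bmpr1b (0.42), and these 3 genes and Bmp7 are named after their values were seen.

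Of 19 probe sets of 8 Smad transducers and partners 0 passed in limma at E10.5, against 2.8% of all probe sets. In the paired fit 1 passed, against 11% of all probe sets. That probe set was of Smad4, the shared partner of the other Smads, and is named after its value was seen. Its effect was 0.37, with a paired adjusted p of 0.0386. The 2 largest E10.5 effects were those of Foxh1, a Smad partner, at -0.39 (adjusted p = 0.856) and Smad1, which carries the BMP signal, at 0.39 (adjusted p = 0.844). Of 38 probe sets of 20 extracellular inhibitors and ligand carriers 0 passed in limma at E10.5, against 2.8% of all probe sets. In the paired fit 2 passed, both of Fstl1, against 11% of all probe sets. The 2 largest E10.5 effects there were those of Fstl1, a follistatin-like secreted protein, at 0.54 (adjusted p = 0.0777 unpaired and 0.0105 paired), and Fst, the activin antagonist follistatin, at 0.53 (adjusted p = 0.639).

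Of 31 probe sets of 10 intracellular brakes on the pathway 2 passed at E10.5, in opposite directions, against 2.8% of all probe sets. Tgif2, a corepressor of TGF-beta targets, averaged 9.35 ± 0.11 in Norrin and 8.49 ± 0.15 in wild type (SD, n = 3). That was an effect of 0.86 (1.82-fold, adjusted p = 0.00477), and its second probe set gave 0.52. Nedd4l, a ubiquitin ligase that acts on Smads, averaged 4.41 ± 0.14 in Norrin and 5.22 ± 0.35 in wild type by 1441305_at. That effect was -0.81 (adjusted p = 0.03) at a low signal, and the other 5 Nedd4l probe sets gave -0.65 to -0.18. With pairs 8 of the 31 passed, 5 higher and 3 lower in Norrin, against 11% of all probe sets. The higher ones were both Tgif2 probe sets, 2 of the ubiquitin ligase Smurf1 (0.39 and 0.43, adjusted p = 0.0219 and 0.026) and 1 of the phosphatase Ppm1a (0.56, adjusted p = 0.0112). The lower ones were 2 of Nedd4l and 1 of the corepressor Skil (-0.78, adjusted p = 0.0344). Smurf1, Ppm1a and Skil are named after their values were seen.

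Of 26 probe sets of 14 other targets 2 passed at E10.5, both higher in Norrin, against 2.8% of all probe sets. Ccn2, a matrix-associated protein induced by TGF-beta, read 10.36, 11.22 and 10.75 in Norrin and 8.60, 8.82 and 8.07 in wild type. Its effect was 2.28 ± 0.33 (4.85-fold, adjusted p = 0.00365). Tagln, an actin-binding protein of smooth muscle, read 11.62, 11.70 and 11.49 in Norrin and 10.50, 9.84 and 10.20 in wild type, with an effect of 1.42 (2.68-fold, adjusted p = 0.0266). With pairs 8 of the 26, of 5 genes, passed, all higher in Norrin, against 11% of all probe sets. Besides Ccn2 and Tagln these were the transcription factors Gata4 (0.91 and 0.83, adjusted p = 0.0024 and 0.00143) and Tbx20 (0.49 to 0.96 by 3 probe sets) and the matrix protein fibronectin, Fn1 (0.44, adjusted p = 0.0369), all 3 named after their values were seen.

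At E8.5, 0 of the 201 probe sets of the 6 lists passed in limma without pairs, 17 had an unadjusted p under 0.05, against 6.49% of all probe sets, and 4 passed in the paired fit, against 0.816%. The 2 largest effects of each list were those of Tgfb2 (0.43) and Lefty1 (-0.42) among the ligands, Tgfbr3 (0.42) and Bmpr2 (0.40) among the receptors, and Smad1 (0.29) and Foxh1 (0.28) among the Smads and partners. They were Bmp1 (0.48) and Twsg1 (0.34) among the extracellular inhibitors and carriers, Nedd4l (-0.58) and Tgif2 (0.57) among the brakes, and Gata4 (0.80) and Tbx20 (0.75) among the other targets. Their adjusted p ran from 0.434 for Tgif2 to 0.912 for Foxh1. In the paired fit Gata4, a transcription factor of mesoderm and endoderm, passed by both of its probe sets (0.73 and 0.80, adjusted p = 0.0375 and 0.0138), as did Tbx20 (0.0346) and a second Tgif2 probe set (0.55, adjusted p = 0.0401). The median effect at E10.5 was -0.02 for the other ligands, 0.07 for the receptors, 0.20 for the Smads, 0.06 for the inhibitors, 0.07 for the brakes and 0.24 for the other targets, against 0.01 over all probe sets.

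Among all named genes, those whose pattern over the 12 arrays was most like Msx2 1449559_at were Emb, Zfp703, Pdlim4, Rap2c and Egflam. The measure was the root mean square difference after the wild type mean of the stage was taken off, which was 0.27 for Emb, 0.33 for Zfp703, 0.38 for Pdlim4, 0.38 for Rap2c and 0.39 for Egflam, against a median of 1.06 over 34943 probe sets. For Tgfbi 1448123_s_at they were Klf6 (0.19), Prkar1b (0.23), Plod2 (0.27), Epas1 (0.29) and Igfbp3 (0.29), against a median of 0.84. Plod2 encodes an enzyme that modifies collagen, Epas1 the hypoxia-inducible factor HIF-2alpha and Klf6 a zinc finger transcription factor. The likeness is a description over 12 arrays that share the Norrin effect.

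In bulk tissue, fewer cells of a type and less RNA per cell cannot be told apart, and markers of several cell types moved with the members. Markers of yolk sac mesoderm and mesenchyme, the layer in which the mouse makes Bmp4, had mean levels of 10.89 to 11.31 in Norrin and 10.48 to 10.93 in wild type at E8.5, and 11.96 to 12.12 in Norrin and 11.46 to 11.64 in wild type at E10.5. Of the 8 genes of this list, 1 passed at E10.5, Pdgfra, by all 3 of its probe sets. That was 3 of the 18 probe sets of the list, against 2.8% of all probe sets. The largest Pdgfra effect was 2.03, a 4.09-fold change. In the paired fit 8 of the 18 probe sets of this list passed at E10.5, against 11% of all probe sets. They were of Pdgfra, Tbx20, Postn and Foxf1. At E8.5, 5 passed in that fit, against 0.816%, of Pdgfra, Tbx20 and Postn. All were higher in Norrin. At E8.5 the largest effect was again that of Pdgfra, 1.86 (3.64-fold, adjusted p = 0.228 unpaired and 0.00755 paired). The list shares Col1a1, Col1a2, Hand1 and Tbx20 with the other targets.

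Markers of parietal endoderm, which lays down a basement membrane, had mean levels at E10.5 of 11.22 to 11.43 in Norrin and 10.55 to 10.78 in wild type. Of their 19 probe sets 2 passed, of 2 of 9 genes, higher in Norrin, against 2.8% of all probe sets. With pairs 8 passed, of 5 genes, against 11%. Markers of visceral endoderm, the nutritive outer layer, had 13.03 to 13.10 in Norrin and 13.44 to 13.58 in wild type at E10.5. Of their 28 probe sets 7 passed, of 3 of 10 genes, all lower in Norrin, against 2.8% of all probe sets. With pairs 15 passed, of 7 genes, against 11%. The visceral endoderm levels were apart at E8.5 as well, at 12.85 to 13.12 in Norrin and 13.35 to 13.47 in wild type. There 11 of their 28 probe sets had an unadjusted p under 0.05, against 6.49% of all probe sets, and 0 passed without pairs. In the paired fit 5 passed, against 0.816%, all lower in Norrin and of Afp, Apoa4 and Apob. Erythroid markers had 10.56 to 10.67 in Norrin and 11.22 to 12.17 in wild type, with 5 of 7 genes lower, or 6 in the paired fit. The visceral endoderm, mesoderm and erythroid lists were bright in every group, and so was the parietal endoderm list, at 10.17 to 11.43. Endothelial markers overlapped, at 7.98 to 8.46 in Norrin and 7.99 to 8.55 in wild type. Trophoblast markers were low in most pools, but reached 6.96 in Norrin replicate 2 of E8.5 and 7.33 in Norrin replicate 2 of E10.5, where the wild type pools had 5.34 to 5.62 and 5.27 to 5.76. Decidua markers had 7.48 to 7.99 in Norrin and 7.21 to 7.44 in wild type at E10.5. Of their 14 probe sets 1 passed, of Wnt4, against 2.8% of all probe sets, and 3 passed with pairs, against 11%. Of 23 probe sets of the embryo neural list 0 passed in limma at E10.5, against the same 2.8%. With pairs 1 passed, against 11%, that of Sox2 (adjusted p = 0.0355), named after its value was seen.

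Without the Norrin replicate 2 array of E8.5 the Msx2 1449559_at effect at that stage was 1.63 (adjusted p = 0.263), and its mean over both stages was 1.32 (adjusted p = 0.0133). Without the Norrin replicate 2 array of E10.5 the Msx2 effect at that stage was 1.23 (adjusted p = 0.0396), past the threshold, and the Tgfbi 1415871_at effect was 1.06 (adjusted p = 0.0575). The part of these shifts in the Msx2, Bmp2 and Tgfbi differences was not tested.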

How the data were processed

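Total RNA of 12 pooled yolk sac samples was read on Affymetrix mouse expression arrays. The deposited table holds 1 log2 value per probe set and array, and RMA made it, per the submitters' processing notes (no version given). RMA corrects background, quantile-normalizes arrays and summarises probes, and here each stage had a run of its own, so levels were compared within a stage. The table held no columns of other samples.

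The members, gene lists and tests were chosen with earlier results of these data known. The platform annotation named the probe sets, and the 34945 with a single gene were fitted. Promoters and gene positions came from RefSeq (GRCm38.p6), matched by symbol. Sequence entries were used for 7 of the 10 genes.

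The tests used limma 3.58.1 (R 4.3.3) with lmFit and eBayes, and 1 mean per group over 12 arrays, which left 8 residual degrees of freedom beside 3.91 prior ones. The contrasts were the Norrin effect at E8.5 and E10.5, their difference and their mean, two-sided, with Benjamini-Hochberg adjustment over all probe sets, a threshold of 0.05 and 95% intervals. All adjusted p-values in the text are limma's. The number of arrays limits the precision, and the median standard error of an effect was 0.16. The fit was tested on simulated data.

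The labels number the pools 1 to 3 in every group without saying that a number marks a litter or day. Deviations from the group means correlated between same-numbered pools at 0.75, 0.41 and 0.72 at E8.5 and 0.50, 0.26 and 0.23 at E10.5. As each exceeded 0.1, the numbers were taken as pairs within a stage from the data alone, and a replicate block gave the paired fit. Differently numbered pools exceeded 0.1 as well for Norrin 1 with wild type 2 at E8.5 (0.16) and Norrin 3 with wild type 2 at E10.5 (0.14). The rest of those were negative. The pairs were chosen from the same values that the paired fit tests, so its calls depend on that choice.

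Named were all member probe sets. From each other list up to 4 genes with the largest change past the threshold per stage were named, or the 2 largest changes where none passed, and the 5 nearest patterns to Msx2 and Tgfbi. Alternatives were the block, each stage alone, 1 probe set per gene, median centring, joint quantile normalization, only probe sets above the median level, eBayes with trend and robust settings, and leaving out each array.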

Additional observations from a re-analysis of the deposited data

How the results depend on the processing

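With 3 pools a group, effects of under about 2-fold were often within the spread between pools, and the stages cannot be compared in level. The mean effect of Msx2 1449559_at passed under every alternative run. The paired fit, with a replicate block within each stage, called 3 member probe sets at E8.5, 7 at E10.5, 1 for the difference between stages and 10 for the mean effect, against 0, 3, 0 and 2 without it, and it changed no other member's call. With 1 probe set per gene 1 member passed at E8.5 and 1 at E10.5. With only the probe sets above the median level 1 passed at E8.5 and 4 on the mean effect, and with trend and robust settings 1 passed at E8.5. Tgfbi 1437463_x_at joined the E10.5 calls with only those brighter probe sets (adjusted p = 0.0408) and with a block over both stages (0.0422). Without both E8.5 replicate 3 arrays, chosen after the data were seen, 1 passed at E8.5 and 5 on the mean effect, and Bmp2 joined the E10.5 calls (0.0162). Leaving out each array in turn gave 0 to 1 members at E8.5, 0 to 3 at E10.5, 0 for the difference and 1 to 4 for the mean effect. Over all probe sets, 16 passed at E8.5, 980 at E10.5, 26 for the difference and 813 for the mean effect. The replicate block gave 285, 3853, 485 and 4180. A block over both stages gave 10 at E8.5, the stage alone 0, and the probe sets above the median level 10 at E8.5 and 3 for the difference. Fitting 1 probe set per gene gave 17 for the difference, and leaving out both replicate 3 arrays gave 15. Leaving out 1 array gave 1 to 21 at E8.5, 393 to 1178 at E10.5, 4 to 45 for the difference and 424 to 720 for the mean effect. At E8.5, 13 of 16 calls were higher in Norrin, and 13 of 14 with arrays centred on their median.

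No called effect changed sign, and the cause of the sign changes that follow was not tested. Under joint quantile normalization the dim Msx2 1438351_at gave 0.0038 at E8.5 and 0.027 on the mean effect, Smad6 -0.011 at E8.5, Smad7 1423389_at 0.075 for the difference and Id1 -0.034 on the mean effect. With median centring Bmp4 gave -0.040 for the difference and Msx2 1438351_at 0.00030 on the mean effect. Without both E8.5 replicate 3 arrays Msx2 1438351_at gave 0.082 at E8.5, -0.029 for the difference and 0.067 on the mean effect. The same omission gave Id3 0.37 at E8.5, Smad6 0.030 on the mean effect, and differences of 0.024 for Smad7 1423389_at, 0.050 for Smad7 1443771_x_at and -0.044 for Bmp4. Leaving out each array in turn, the E8.5 effects spanned 0 for Id3 (-0.40 to 0.39), Msx2 1438351_at (-0.17 to 0.077), Smad6 (-0.23 to 0.47), Smad7 1423389_at (-0.11 to 0.57) and Smad7 1443771_x_at (-0.096 to 0.92). The E10.5 effects did so for Id1 (-0.39 to 0.13), Id2 1422537_a_at (-0.20 to 0.18), 1435176_a_at (-0.087 to 0.23) and 1453596_at (-0.046 to 0.11), Id3 (-0.017 to 0.79) and Smad6 (-0.23 to 0.080). The differences did so for Bmp2 (-0.39 to 0.83), Bmp4 (-0.17 to 0.15), Id2 1422537_a_at (-0.015 to 0.36), Msx2 1438351_at (-0.024 to 0.22), Smad6 (-0.58 to 0.12), Smad7 1423389_at (-0.33 to 0.35) and Smad7 1443771_x_at (-0.62 to 0.40). The mean effects did so for Id1 (-0.097 to 0.16), Id3 (-0.069 to 0.39), Msx2 1438351_at (-0.058 to 0.064) and Smad6 (-0.17 to 0.18).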
